A study of Homo sapiens with 16 samples.

Results

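The 10 genes described here encode repressors of mTORC1, the kinase complex that couples nutrients and growth signals to protein synthesis. They were selected by gene symbol from the 25369 genes of a read count table, and all 10 were measured. They are the sestrins *SESN1*, *SESN2* and *SESN3*, the RHEB brakes *DDIT4*, *TSC1* and *TSC2*, the inhibitory mTORC1 subunits *DEPTOR* and *AKT1S1*, and the AMPK beta subunits *PRKAB1* and *PRKAB2*. The study asked how inhibition of MDM2 and of the phosphatase PPM1D, both repressors of p53, changes transcription in 2 thyroid cancer lines with wild type p53. TPC1 and K1 (derived from GLAG-66) are established human papillary thyroid carcinoma lines, grown in RPMI and DMEM respectively. Each was treated for 24 h with the vehicle (0.2% DMSO), with 10 µM nutlin-3a, which blocks MDM2, with 25 µM GSK2830371, which blocks PPM1D, or with both drugs, called the combination. Stranded RNA-seq of polyadenylated RNA gave 2 libraries per group, or 8 per line. Medium and line differed together, as would any sequencing run specific to a line, so their parts in a difference between the lines cannot be told apart.

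mTORC1 is switched on at the lysosome, where the Rag GTPases recruit it when amino acids are plentiful and the small GTPase RHEB activates its kinase. Sestrins bind the GATOR complexes and hold the Rag arm down when leucine is short, whereas the TSC1-TSC2 complex turns RHEB off. DDIT4, also called REDD1, acts through TSC2, and AMPK, the kinase that senses low energy, phosphorylates TSC2 and the mTORC1 scaffold raptor. DEPTOR and AKT1S1, also called PRAS40, bind mTORC1 itself and dampen it. Several of these genes are known p53 targets, among them *SESN1*, *SESN2*, *DDIT4*, *PRKAB1* and *TSC2*. *SESN2* and *DDIT4* are also known targets of ATF4, the transcription factor of the integrated stress response. mTORC1 is of interest in thyroid cancer because signalling through RAS and PI3K feeds into it.

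The libraries held 30789887 to 76648552 counts in TPC1 and 28888686 to 37161241 in K1. *PAX8*, which marks the thyroid follicular lineage, stood at 280 to 451 CPM (a gene's counts scaled to equal library totals) in TPC1 and 749 to 841 CPM in K1, whereas the thyrotropin receptor gene *TSHR* was at 0 counts in every library. Markers of leukocytes and endothelium summed to at most 0.825 CPM in any library. Of 10 known p53 targets used as a reference, 10 of 10 rose with nutlin in each line, where 35.5% of all genes tested in TPC1 and 9.27% in K1 changed in either direction. In bulk RNA, a change in every cell and a change in the share of cells expressing a gene cannot be told apart.

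ATF4 binds elements for which the pattern TGATGNAA (N is any base), taken from general knowledge, was searched on both strands of the 1000 bases before the start of each gene's canonical transcript, which is the start meant below. These letters occurred in 11.4% of 20126 windows of coding genes, and in 3 of the 10 genes here. The matches are shown because *SESN2* and *DDIT4* were the members that rose when GSK2830371 was added to nutlin in both lines, and *TSC2*, which was not called in that comparison, also held one. Each is given as 30 bases on the strand of the gene, which is the plus strand in all 3, with the match in capitals, read from the GRCh37 genome. The *SESN2* match (chr1:28585722-28585751) lies 289 to 296 bases before the start, reads TGATGNAA on the opposite strand, and overlaps no annotated gene. The *DDIT4* match (chr10:74032725-74032754) lies 935 to 942 bases before the start, inside an unnamed long non-coding RNA gene of the opposite strand. The *TSC2* match (chr16:2097865-2097894) lies 103 to 110 bases before the start, here base 2097986 of the chromosome and downstream of the first annotated base of the gene, and 3 bases of the stretch belong to *NTHL1* on the opposite strand. A full p53 consensus site with no mismatch was found in 0.0845% of the same windows and in 0 of the 10 genes, which says only that these letters are not in these windows.
SESN2: gtgaagtccctTTTCATCAcgcaaccctaa
DDIT4: gtcctcggtccTGATGCAAccgtctggatc
TSC2: gccccgtcacgTGATGCAAggatcgccggc

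Nutlin raised sestrins, an AMPK beta subunit and, in TPC1, most of the other brakes as well. A gene is called where its adjusted p in edgeR's quasi-likelihood test is under 0.05 and its fold change above 1.5. In TPC1, 8 of the 10 genes were called with nutlin against DMSO, all higher, where 35.5% of all genes tested were called in either direction. The exceptions were *DEPTOR* and *AKT1S1*. In K1, 4 of the 10 were called, namely the 3 sestrins and *PRKAB2*, all higher, against 9.27% of all genes. The median log2 fold change of the 10 genes was 1.40 in TPC1 and 0.52 in K1, and that of all genes tested was 0.00 in both lines.

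GSK2830371 alone moved 2 of the 10 genes in TPC1, *SESN2* and *DDIT4*, where 1.40% of all genes were called. In K1 the edgeR test called 0 of the 10 and DESeq2 also 0, against 2.23% of all genes in edgeR. There 5 of the 10 had an unadjusted p under 0.05, a count without its share over all genes. In edgeR *SESN2* (0.00018) and *PRKAB1* (0.02) had an adjusted p under 0.05 there, at fold changes of 1.45 and 1.24. With the combination, 6 genes were called higher than in DMSO in each line, against 44.2% of all genes in TPC1 and 15.7% in K1. They were the same genes in both lines, that is, the 3 sestrins, *DDIT4*, *PRKAB1* and *PRKAB2*. The median log2 fold change over all 10 genes was 2.10 in TPC1 and 0.84 in K1. These comparisons share the DMSO libraries of each line.

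**Figure D1:**
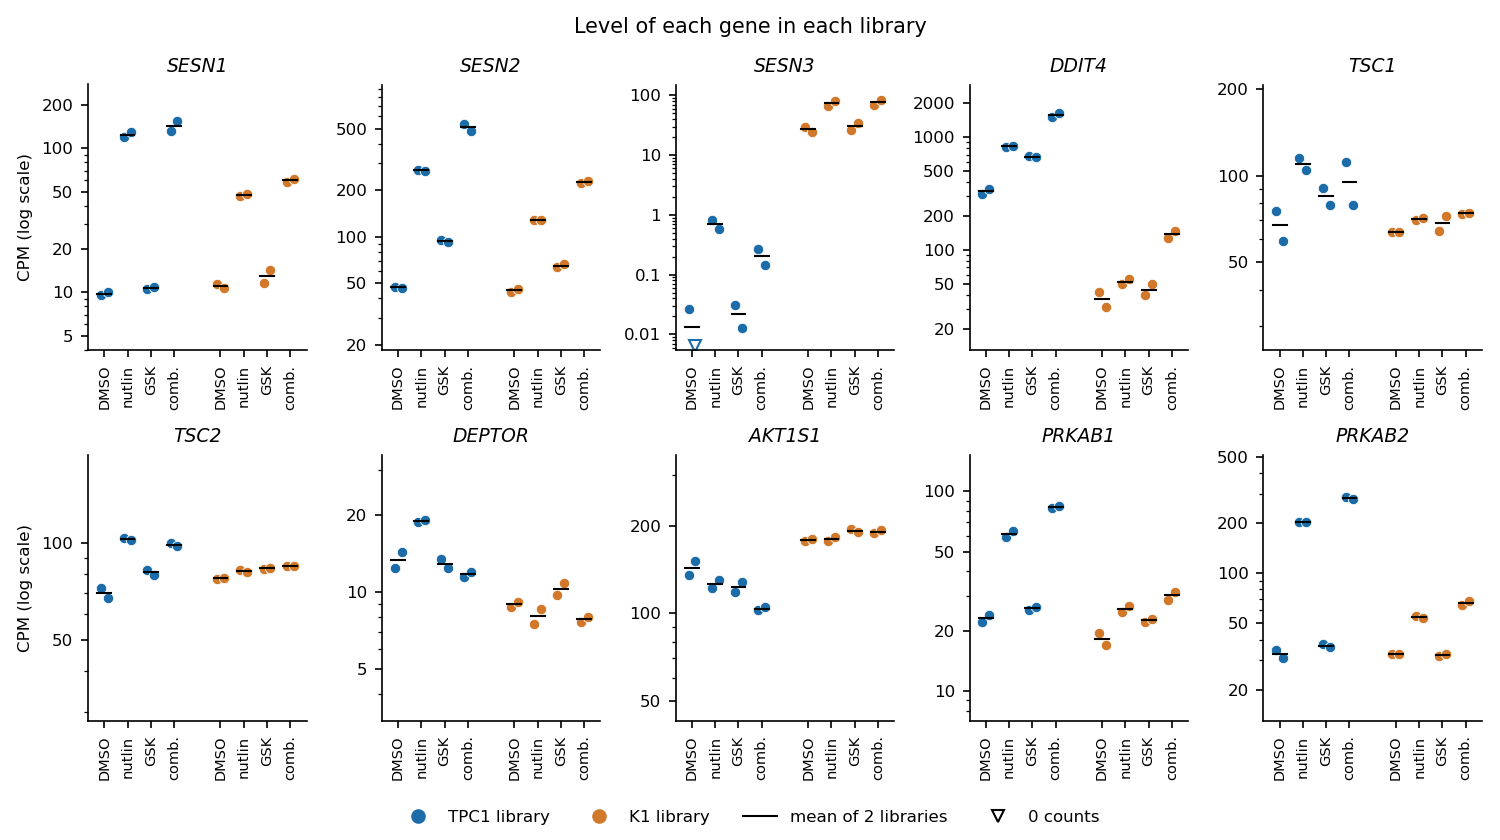
Level of each of the 10 genes in each of the 16 libraries, in CPM on a log axis, with TPC1 on the left and K1 on the right of each panel. Points are single libraries, bars are means of 2 libraries, and the open triangle marks a library with 0 counts. *SESN3* stands at 24.65 CPM or more in every K1 library and at 0.812 CPM or less in every TPC1 library, and *SESN2* steps up in the order DMSO, GSK2830371, nutlin, combination in both lines.

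*SESN1* (chr6:109305512-109416049, minus strand, GRCh37) responded to nutlin and little to GSK2830371. In TPC1 it was measured at 9.54 and 10.02 CPM in DMSO, 119.1 and 128.6 with nutlin, 10.58 and 10.95 with GSK2830371, and 131.3 and 153.4 with the combination. In K1 the corresponding pairs were 11.40 and 10.76, 46.59 and 48.16, 11.70 and 14.35, and 58.38 and 61.37 CPM. Libraries with nutlin, alone or combined, thus lay far above those without it, and no library of either kind crossed over. The log2 fold change with nutlin was 3.69 ± 0.111 (standard error) in TPC1, with an adjusted p of 1.5e-08, and 2.11 ± 0.088 in K1, with an adjusted p of 1.1e-09 (edgeR). GSK2830371 alone gave 0.09 ± 0.107 in TPC1 and 0.24 ± 0.0967 in K1, neither called. *SESN1* shared its response with few other genes as closely as with *CYFIP2*, *BBC3* and *SUGCT*. These 3 had the smallest root mean square differences from it over the 12 treated libraries, 0.254, 0.273 and 0.29 in log2 CPM relative to DMSO, among 9837 genes, where the change of *SESN1* itself was 2.54. *BBC3* encodes the apoptosis inducer PUMA, and *CYFIP2* a regulator of the actin cytoskeleton.

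*SESN2* (chr1:28586029-28609002, plus strand), which encodes the leucine sensor of the pathway, moved with each drug. Its TPC1 libraries held 47.59 and 46.86 CPM in DMSO, 271.4 and 266.7 with nutlin, 95.64 and 92.60 with GSK2830371, and 536.3 and 483.4 with the combination. K1 libraries held 44.24 and 45.85, 127.9 and 127.9, 63.37 and 66.93, and 222.0 and 230.0 CPM in the same order. All 4 treatments were separated from each other in both lines, with the combination highest. Its log2 fold change with nutlin was 2.54 ± 0.0772 in TPC1 and 1.52 ± 0.0546 in K1, at adjusted p of 1.6e-08 and 3.3e-10. GSK2830371 alone raised it by 0.94 ± 0.0743 in TPC1 (adjusted p = 0.0012). In K1 the value was 0.54 ± 0.0552, with an adjusted p of 0.00018 but a fold change of 1.45, below the threshold of 1.5. Against DMSO the combination reached 11.2-fold in TPC1 and 4.91-fold in K1. The genes closest to *SESN2* over the 12 treated libraries were *ARVCF*, *GADD45A* and *DGKA*, at 0.36, 0.383 and 0.424, against a change of 2.12 of *SESN2* itself. *GADD45A* is a DNA damage response gene, and *DGKA* encodes a diacylglycerol kinase.

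*SESN3* (chr11:94898677-94965705, minus strand) separated the lines. It held 1 and 0 counts in the DMSO libraries of TPC1, 25 and 38 with nutlin, 1 and 1 with GSK2830371, and 10 and 9 with the combination, which is at most 0.812 CPM. In K1 it was an expressed gene, at 30.11 and 24.65 CPM in DMSO, 65.91 and 80.84 with nutlin, 26.07 and 35.12 with GSK2830371, and 68.96 and 84.35 with the combination. In K1, libraries with nutlin lay above all those without it, and those of nutlin and the combination overlapped. The log2 fold change with nutlin in K1 was 1.44 ± 0.141 (adjusted p = 4.1e-06). In TPC1 the level from summed counts with nutlin was 71.8 times that in DMSO, with a 95% interval of 12.4 to 2880 that covers counting error only, and the combination gave 20.8 times (3.31 to 866). The fitted log2 fold changes of 5.90 and 4.13 passed the test but depend on a single DMSO read. Without DMSO library 3 of TPC1, the call of the combination was lost (2.81, adjusted p = 0.056). Its nearest genes by response, *ZMAT3*, *AHNAK2* and *FAM84B*, were no closer than 0.625, against its own change of 2.09, and the TPC1 part of that comparison rests on these few counts.

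Per transcript length, *SESN2* was the main sestrin in every group. Its mean level in DMSO was 13.6 ± 0.15 RPKM (CPM per kilobase of canonical transcript, SD, n = 2) in TPC1 and 13 ± 0.33 in K1. *SESN1* stood at 1.73 ± 0.0599 and 1.96 ± 0.0796 RPKM. *SESN3* was at 2.86 ± 0.404 RPKM in K1 DMSO, above *SESN1* there by more than the spread of either. Of the summed sestrin RPKM, *SESN2* made 88.8% ± 0.444 in TPC1 DMSO and 73% ± 2.48 in K1 DMSO. The share of *SESN1* was 11.2% ± 0.457 in TPC1 DMSO and 21.9% ± 1.15 with nutlin, and 14.6% ± 2.28 with the combination, where *SESN2* again took more. In K1 the *SESN3* share was 16% ± 2.13 in DMSO and 9.54% ± 1.0 with the combination. Levels with the combination were 147 ± 10.8 RPKM for *SESN2* in TPC1 and 65.3 ± 1.62 in K1.

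**Figure D2:**
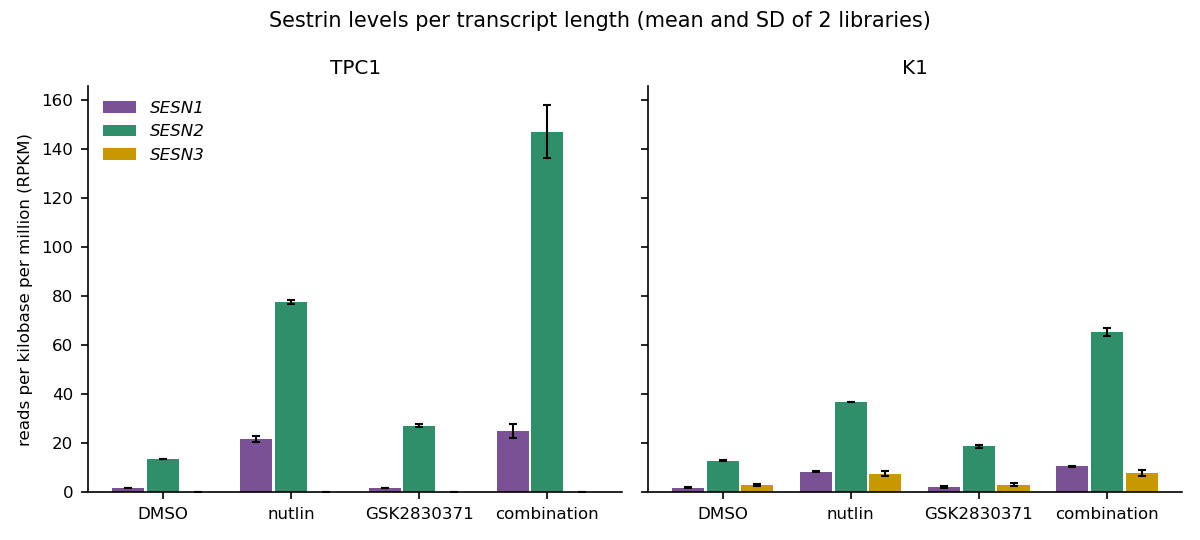
Levels of the 3 sestrin genes per transcript length (RPKM, linear axis from 0) in TPC1 and K1 under the 4 treatments. Bars are means and whiskers the SD of 2 libraries. *SESN2* is the tallest bar in each group, reaching 147 RPKM in TPC1 and 65.3 in K1 with the combination, and *SESN3* is visible only in K1.

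*DDIT4* (chr10:74033678-74035794, plus strand), the stress-induced brake that works through TSC2, differed between the lines in level and in response. TPC1 libraries held 314.8 and 349.4 CPM in DMSO, 822.4 and 837.5 with nutlin, 676.8 and 666.8 with GSK2830371, and 1499 and 1629 with the combination. In K1 the pairs were 42.65 and 30.89, 49.43 and 55.29, 39.47 and 49.37, and 127.2 and 147.7 CPM. The 4 treatments did not overlap in TPC1, whereas in K1 the DMSO and GSK2830371 libraries overlapped and only the combination stood well apart. In TPC1 nutlin raised *DDIT4* by 1.35 ± 0.0891 on the log2 scale (adjusted p = 1.9e-06) and GSK2830371 by 0.97 ± 0.0884 (adjusted p = 0.0024). In K1 nutlin gave 0.52 ± 0.134, a fold change of 1.44 with an adjusted p of 0.009, and GSK2830371 gave 0.28 ± 0.135 (adjusted p = 0.18). The K1 nutlin value became a call without DMSO library 1 (0.77) or nutlin library 1 (0.61). With the combination *DDIT4* rose 4.88-fold in TPC1 and 3.66-fold in K1. Over the 12 treated libraries its nearest genes were *ERO1LB*, *NEAT1* and *SLC30A1*, at 0.386, 0.4 and 0.402 against its own change of 1.41. *ERO1LB* encodes an oxidase of the endoplasmic reticulum, *SLC30A1* a zinc exporter, and *NEAT1* is a long non-coding RNA.

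*TSC1* (chr9:135766735-135822261, minus strand) and *TSC2* (chr16:2097968-2139492, plus strand), which form the complex that turns RHEB off, moved less. *TSC1* ran from 59.13 to 75.24 CPM in the DMSO libraries of TPC1 and stood at 115.3 and 104.6 with nutlin. Its combination libraries, 111.6 and 78.83 CPM, were far apart from each other. In K1 its 8 libraries lay between 63.72 and 74.02 CPM. *TSC2* was measured at 72.66 and 67.52 CPM in TPC1 DMSO, 103.8 and 102.0 with nutlin, 82.15 and 79.70 with GSK2830371, and 99.60 and 97.43 with the combination. In K1 it stayed between 77.51 and 85.04 CPM in all libraries. Nutlin raised *TSC1* by 0.75 ± 0.163 (adjusted p = 0.0037) and *TSC2* by 0.59 ± 0.072 (adjusted p = 0.00011) in TPC1. The *TSC2* value lies at the fold threshold, and its call was lost under library size scaling (0.55), with no filter (0.58), without DMSO library 3 (0.56) or nutlin library 1 (0.57), and under a correction for GC content and length (0.42). With the combination the values were 0.55 ± 0.163 for *TSC1* and 0.54 ± 0.072 for *TSC2* in TPC1, below the fold threshold. *TSC1* passed it without DMSO library 1 (0.73) or combination library 3 (0.78), and *TSC2* without DMSO library 1 (0.59). In K1 neither gene exceeded 0.18 against DMSO under any treatment.

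The AMPK beta subunits rose with nutlin in TPC1, and *PRKAB2* also in K1. *PRKAB2* (chr1:146626685-146644129, minus strand) held 34.58 and 31.15 CPM in TPC1 DMSO, 203.7 and 204.6 with nutlin, 37.40 and 36.11 with GSK2830371, and 286.3 and 279.4 with the combination. In K1 it held 32.90 and 32.96, 55.42 and 53.79, 31.72 and 32.84, and 64.66 and 68.59 CPM. The lines started from the same level, and the gene then rose 6.36-fold with nutlin in TPC1 (log2 2.67 ± 0.0787, adjusted p = 1.4e-08) and 1.67-fold in K1 (log2 0.74 ± 0.0599, adjusted p = 6.4e-07). *PRKAB1* (chr12:120105669-120119429, plus strand) held 22.25 and 24.06 CPM in TPC1 DMSO, 58.95 and 63.79 with nutlin, 25.62 and 26.38 with GSK2830371, and 82.95 and 84.59 with the combination. In K1 it ran from 17.09 CPM in a DMSO library to 31.58 in a combination library, with no overlap of nutlin or combination libraries with DMSO. Its log2 fold change with nutlin was 1.44 ± 0.0843 in TPC1 (adjusted p = 9.6e-07). The K1 value of 0.51 ± 0.0838 fell short of the fold threshold, although its adjusted p was 0.0004, and passed it without DMSO library 1 (0.61). With the combination the K1 value was 0.69 ± 0.0828 (adjusted p = 1.5e-05). Per length, *PRKAB1* lay above *PRKAB2* in TPC1 DMSO (10.4 ± 0.575 against 6.15 ± 0.454 RPKM) and below it with nutlin (27.7 ± 1.54 against 38.2 ± 0.109). GSK2830371 alone gave *PRKAB1* 0.12 ± 0.0841 and *PRKAB2* 0.11 ± 0.0758 in TPC1, neither called. In K1 the values were 0.31 ± 0.0847 (adjusted p = 0.02, under the fold threshold) and -0.02 ± 0.0616, also not called.

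The inhibitory subunits of mTORC1 itself, *DEPTOR* and *AKT1S1*, were not called against DMSO in either line. *DEPTOR* held 12.44 and 14.35 CPM in TPC1 DMSO, 18.77 and 19.15 with nutlin, 13.43 and 12.38 with GSK2830371, and 11.50 and 12.03 with the combination. Only the nutlin libraries stood above DMSO, at a log2 fold change of 0.53 ± 0.0989 with an adjusted p of 0.0015, under the fold threshold of 1.5. This became a call without DMSO library 3 (0.67) and under the correction for GC content and length (0.65). In K1 the 8 libraries lay between 7.512 and 10.81 CPM. *AKT1S1* (chr19:50372290-50381716, minus strand) held 136.2 and 151.1 CPM in TPC1 DMSO, 122.5 and 130.4 with nutlin, 118.4 and 128.8 with GSK2830371, and 102.4 and 105.5 with the combination. The combination value was -0.42 ± 0.0864 (adjusted p = 0.0023), a fold change of 0.75 that misses the threshold. In K1 it lay between 177.7 and 195.4 CPM. The *AKT1S1* count is uncertain, since reads shared between overlapping genes could not be assigned.

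**Figure D3:**
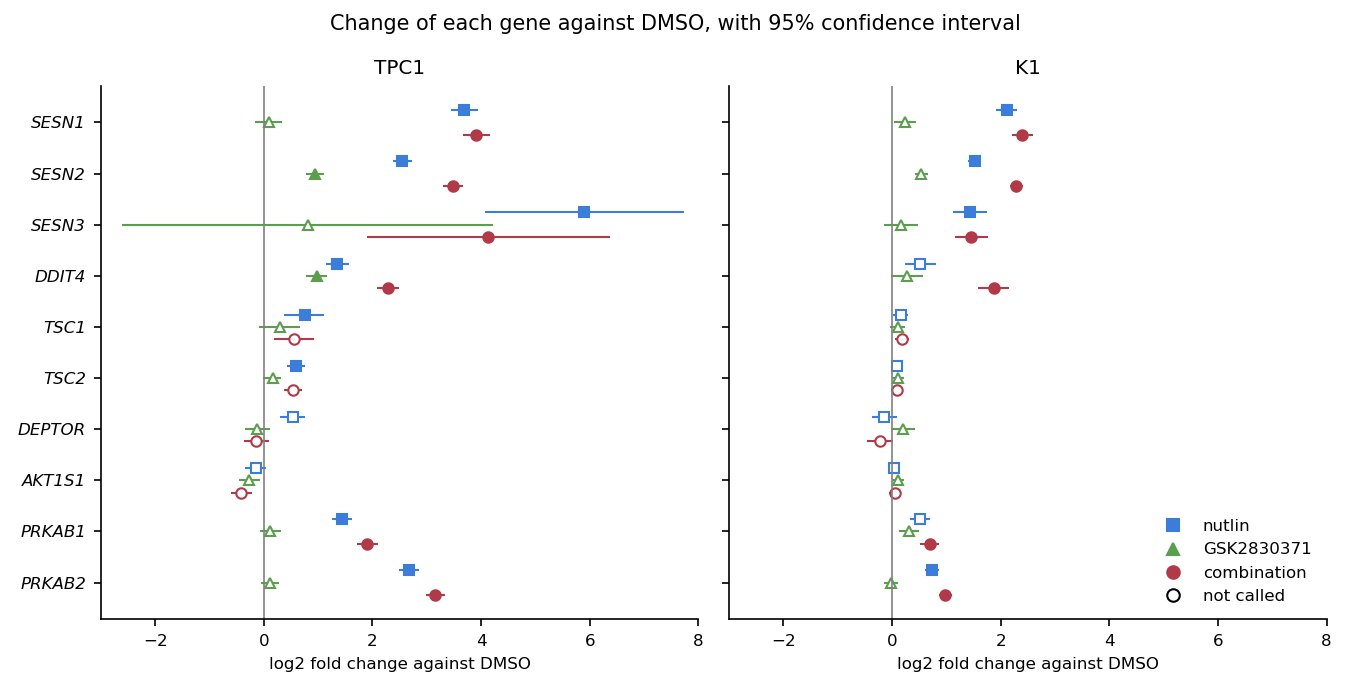
Log2 fold change of each gene against DMSO (x axis) in TPC1 and K1, for nutlin, GSK2830371 and the combination. Points are edgeR estimates, lines their 95% confidence intervals, filled points are called and open points are not. In both lines the 6 filled combination points are the sestrins, *DDIT4* and the AMPK subunits, and the wide intervals of *SESN3* in TPC1 reflect its 1 DMSO read.

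Per length, the order of the 10 genes in DMSO was led by the same genes in both lines. In TPC1 it ran from *DDIT4* (190.0 ± 14.0 RPKM) and *AKT1S1* (80.9 ± 5.95) through *SESN2* (13.6 ± 0.15), *TSC2* (10.9 ± 0.567) and *PRKAB1* (10.4 ± 0.575) to *TSC1* (7.81 ± 1.32), *PRKAB2* (6.15 ± 0.454), *DEPTOR* (5.21 ± 0.527), *SESN1* (1.73 ± 0.0599) and *SESN3* (0.00142 ± 0.002). The ranges of mean ± SD overlapped between *TSC2* and *PRKAB1*, between *TSC1* and *PRKAB2*, and between *PRKAB2* and *DEPTOR*. K1 differed at the ends, with *AKT1S1* first (101 ± 1.11) and *DDIT4* next (21.0 ± 4.76), and with *SESN3* (2.86 ± 0.404) above *SESN1* (1.96 ± 0.0796). With the combination *DDIT4* led in TPC1 at 895 ± 52.4 RPKM, followed by *SESN2* at 147 ± 10.8, while in K1 *AKT1S1* was still first at 108 ± 1.97 and *DDIT4* stood at 78.6 ± 8.31.

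The comparison of the combination with nutlin shows what GSK2830371 added. *SESN2* and *DDIT4* were higher with the combination in both lines. *SESN2* rose by a further 0.94 ± 0.073 on the log2 scale in TPC1 and 0.78 ± 0.0517 in K1, at adjusted p of 6.8e-05 and 2.9e-06. *DDIT4* rose by 0.93 ± 0.0882 (adjusted p = 0.00017) and 1.35 ± 0.129 (adjusted p = 5.9e-05). In K1 these were the 2 called genes of the 10, against 2.68% of all genes. In TPC1 4 of the 10 were called, against 12.1% of all genes, and the other two fell. *DEPTOR* fell by 0.67 (SE 0.0998, adjusted p = 0.0017), and *SESN3* fell by 1.77 (SE 0.498, adjusted p = 0.029). The *SESN3* counts were 19 against 63, a depth-scaled ratio of 0.29 with a counting interval of 0.164 to 0.491. Its call was lost with DESeq2 (adjusted p = 0.097) and without nutlin library 1 (0.14), nutlin library 3 (0.077) or combination library 3 (0.18). *PRKAB1* and *PRKAB2* passed the p threshold but not the fold in TPC1, at 0.47 ± 0.0816 and 0.49 ± 0.0733. *SESN1* gave 0.22 ± 0.0967 in TPC1 and 0.29 ± 0.0777 in K1, neither called. In K1 *SESN1* (adjusted p = 0.026) and *PRKAB2* (0.24 ± 0.0582, adjusted p = 0.015) passed the p threshold but not the fold.

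Against GSK2830371 alone, the combination raised 6 of the 10 genes in TPC1 and 5 in K1, where 38.5% and 13.1% of all genes were called. The 6 were those that rose against DMSO, and *PRKAB1* (0.38 ± 0.0823) was the one short of the fold threshold in K1. Nutlin added to GSK2830371 raised *SESN2* by 2.54 ± 0.0768 in TPC1, and *SESN1* by 3.83 ± 0.111. In TPC1 the *SESN3* value of 3.33 lost its call without GSK2830371 library 3 (2.64, adjusted p = 0.11).

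The interaction compares the effect of nutlin in the presence of GSK2830371 with its effect alone, on the log2 scale, so that 0 means that the drugs multiply. In TPC1 edgeR called 0 of the 10 genes, where 6.32% of all genes were called, and DESeq2 also called 0. In TPC1 3 of the 10 had an unadjusted p under 0.05, likewise a count without its share over all genes. There the values for *SESN2* and *DDIT4* were 0.00 ± 0.102 and -0.03 ± 0.124, with 95% intervals of -0.24 to 0.23 and -0.31 to 0.25. GSK2830371 thus raised *SESN2* by 0.94 both without and with nutlin. *DEPTOR* had the lowest adjusted p of the 10, 0.045, at -0.55 ± 0.141, under the fold threshold. It passed that threshold under library size scaling (-0.62), without DMSO library 3 (-0.68) and under the correction for GC content and length (-0.59). In K1 1 of the 10 genes was called, against 2.44% of all genes, and that was *DDIT4* at 1.07 ± 0.186 (95% interval 0.66 to 1.47, adjusted p = 0.0089). The call was lost without nutlin library 2 (1.16, adjusted p = 0.065) or combination library 2 (0.96, adjusted p = 0.056). *SESN2* gave 0.24 ± 0.0755 in K1, with an adjusted p of 0.07.

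**Figure D4:**
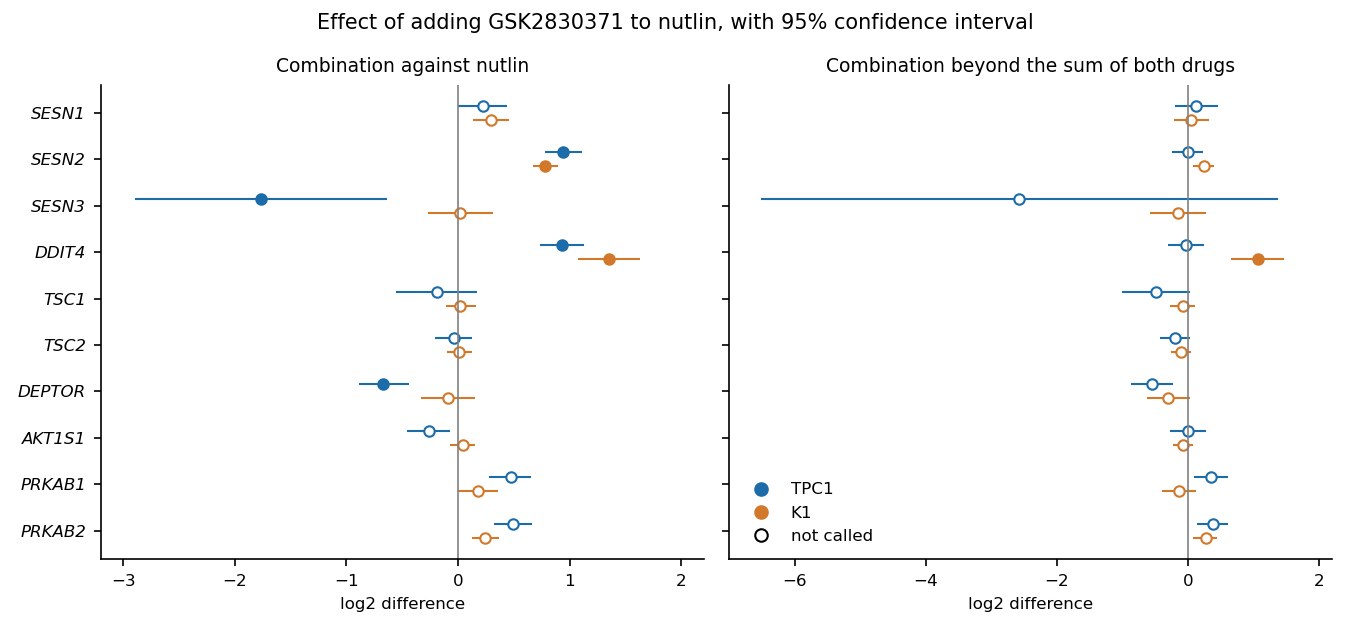
Log2 difference between the combination and nutlin (left) and interaction of the drugs (right) for the 10 genes in TPC1 and K1. Points are edgeR estimates with 95% confidence intervals, filled where called. *SESN2* and *DDIT4* are filled on the left in both lines, while on the right *DDIT4* in K1, at 1.07, is the one filled point.

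Reference lists of 10 known p53 targets and 10 known ATF4 targets, written from general knowledge with earlier results of these data known, were set beside these values. With nutlin the p53 list had a median log2 fold change of 3.21 in TPC1 and 1.57 in K1, whereas the ATF4 list had -0.40 and -0.34. When GSK2830371 was added to nutlin, 10 of 10 ATF4 targets in TPC1 and 9 of 10 in K1 were called higher, at medians of 1.99 and 1.12, against 12.1% and 2.68% of all genes. Of the p53 list, 2 of 10 were called in each line, at medians of 0.42 and 0.32. *SESN2* and *DDIT4* rose in both of these comparisons in TPC1. *CHAC1*, an ATF4 target that degrades glutathione, changed by -1.44 ± 0.0921 with nutlin in TPC1 and by 5.00 ± 0.101 when GSK2830371 was added. *CDKN1A*, the p53 target that arrests the cell cycle, gave 5.61 ± 0.141 and 0.87 ± 0.116 in the same comparisons. In the interaction, 9 of 10 ATF4 targets in TPC1 and 6 of 10 in K1 were called higher, at medians of 1.12 and 0.86. Of the p53 list, 0 of 10 were called there in each line, against 6.32% and 2.44% of all genes. *SESN2* and *DDIT4* had interaction values of 0.00 and -0.03 in TPC1, and of 0.24 and 1.07 in K1. With GSK2830371 alone in TPC1 the ATF4 list had 7 of 10 called higher, against 1.40% of all genes, including *ASNS*, the asparagine synthetase gene, at 1.04 ± 0.114, beside the 0.94 of *SESN2* and the 0.97 of *DDIT4*. In K1, where GSK2830371 alone called 0 of the 10 brakes, 1 of 10 ATF4 targets was called, against 2.23% of all genes. The p53 list with GSK2830371 alone had 0 of 10 called in TPC1 and 3 of 10 called higher in K1, at medians of 0.17 and 0.34.

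To compare the lines, all 16 libraries were fitted together, with 16738 genes tested. In DMSO 3 of the 10 genes were called, where 46.2% of all genes were. *DDIT4* was lower in K1 by 3.18 on the log2 scale (difference -3.18 ± 0.144, adjusted p = 6.3e-12), and *DEPTOR* also (-0.60 ± 0.107, adjusted p = 0.00012). The *DEPTOR* value lies at the fold threshold and was not called with no filter (-0.58), without TPC1 DMSO library 3 (-0.45), TPC1 combination library 3 (-0.58), K1 DMSO library 1 (-0.56) or K1 combination library 1 (-0.58). *SESN3* was higher in K1, at 1975 counts in both DMSO libraries together against 1 in TPC1, a depth-scaled ratio of 2990 with a counting interval of 535 to 118000. *SESN1*, *SESN2*, *TSC1* and *PRKAB2* had differences of 0.17 ± 0.113, -0.07 ± 0.0658, -0.07 ± 0.123 and 0.00 ± 0.065. Their 95% intervals stayed within -0.34 to 0.41, so a difference of 1.5-fold lay outside them.

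The effect of nutlin was smaller in K1 for 8 of the 10 genes, where 19.2% of all genes were called for a difference between the lines. *PRKAB2* had the lowest adjusted p, with a difference of -1.97 ± 0.091 (adjusted p = 4.8e-10). *SESN1* differed by -1.62 ± 0.15 and *SESN2* by -1.06 ± 0.0918, with adjusted p of 6.2e-07 and 3e-07. The remaining called values were -0.96 for *PRKAB1*, -0.86 for *DDIT4*, -0.70 for *DEPTOR*, -0.62 for *TSC1* and -4.40 for *SESN3*, the last again resting on 1 TPC1 read. *TSC2* gave -0.53 ± 0.0847, with an adjusted p of 0.00015 but under the fold threshold, and *AKT1S1* 0.14 ± 0.113. The 10 p53 reference targets had medians of 3.21 in TPC1 and 1.57 in K1, as given above. *TSC1* was not called under library size scaling (-0.57), edgeR's own filter (-0.57), or without TPC1 DMSO library 3 (-0.48) or nutlin library 1 (-0.56). *DEPTOR* lost its call without TPC1 DMSO library 1 (-0.58), and *SESN3* without TPC1 DMSO library 3 (-3.12, adjusted p = 0.086).

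What GSK2830371 added to nutlin differed between the lines for 1 of the 10 genes, against 5.11% of all genes. That was *SESN3*, at 1.78 ± 0.509 (adjusted p = 0.039), higher in K1. The call was lost without any one of TPC1 nutlin library 1 (1.60), TPC1 nutlin library 3 (2.06), TPC1 combination library 3 (1.30), K1 nutlin library 1 (1.63) or K1 combination library 2 (1.64). For *SESN2* the difference was -0.15 ± 0.0897 (95% interval -0.34 to 0.04), and for *DDIT4* 0.42 ± 0.187 (0.03 to 0.82, adjusted p = 0.2). *DEPTOR* gave 0.58 ± 0.156, with an adjusted p of 0.028, and was called under library size scaling (0.64) or without TPC1 combination library 3 (0.63) or K1 nutlin library 2 (0.70). Whether the effect of GSK2830371 alone differed between the lines was not tested.

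The rest of the pathway was followed in 6 lists of 60 genes in all, of which 58 were tested in each line. With nutlin 12 of the 58 rose and 4 fell in TPC1, and 3 rose in K1. These are 27.6% and 5.17% of the 58, beside 35.5% and 9.27% of all genes. With the combination 14 rose and 3 fell in TPC1, and 3 rose in K1, or 29.3% and 5.17%, beside 44.2% and 15.7% of all genes. Those that fell in TPC1 were *AKT1* and *SEH1L* in both comparisons, *RHEB* and *EIF4EBP1* with nutlin, and *PRR5* with the combination. The median log2 fold change of the 58 genes with the combination was 0.08 in TPC1 and 0.04 in K1, beside 0.00 and 0.01 for all genes tested. Among the AKT genes, *PIK3IP1*, which encodes an inhibitor of PI3K, and *PHLDA3*, which encodes a repressor of AKT, were called higher with the combination in both lines. *PIK3IP1* rose by 2.51 ± 0.12 in TPC1 and 1.59 ± 0.246 in K1, and *PHLDA3* by 2.36 ± 0.08 and 1.25 ± 0.0525. The third gene called in K1 was *PRR5*, an mTORC2 subunit gene, at 1.06 ± 0.214, which was called lower in TPC1 (-0.67 ± 0.0823). Its K1 level was low, at a mean of 1.298 CPM in DMSO and 2.778 with the combination, against 25.94 and 15.78 in TPC1. *PRR5* and the other genes of this paragraph and the next that were called only against DMSO were picked after their values were seen.

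**Figure D5:**
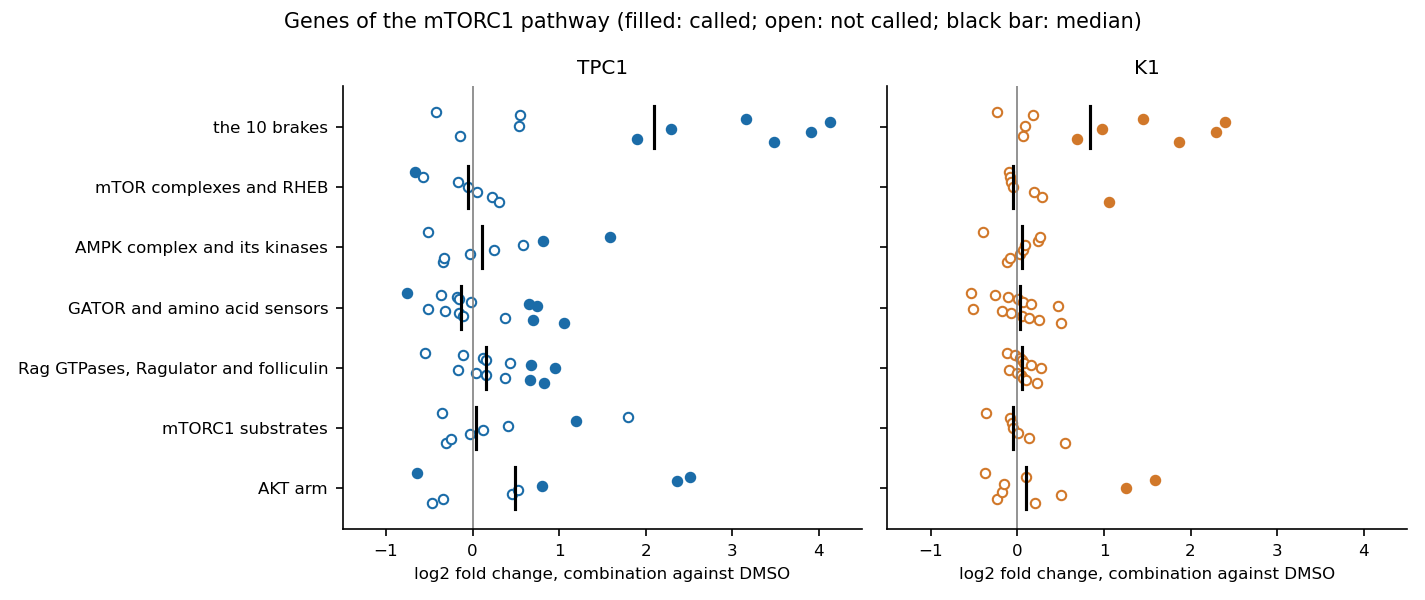
Log2 fold change with the combination against DMSO (x axis) of the 10 brakes and of 6 lists of mTORC1 pathway genes in TPC1 and K1. Each point is a gene, filled where called, black bars are list medians, and the vertical spread within a list has no meaning. The medians of the 10 brakes are 2.10 in TPC1 and 0.84 in K1, and those of the other lists lie between -0.13 and 0.49.

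Within the core complexes, *RHEB* was called lower with nutlin in TPC1 (-0.63 ± 0.125). Its mean there was 138.4 CPM in DMSO, 87.51 with nutlin and 89.75 with the combination, which was not called against DMSO. Among the AMPK genes *STRADA* and *STK11*, which encode the activating partner and the catalytic subunit of the LKB1 kinase, rose in TPC1 with nutlin (1.23 ± 0.0764 and 0.59 ± 0.076) and with the combination (1.59 ± 0.0766 and 0.81 ± 0.0761). Of the Rag and lysosomal scaffold genes, *RRAGC*, *LAMTOR2*, *LAMTOR4* and *FLCN* rose with nutlin in TPC1, by 0.61 to 1.32. Of the mTORC1 substrates, *ULK1*, the kinase that starts autophagy, rose by 1.05 ± 0.0947 with nutlin in TPC1. *EIF4EBP1*, which encodes the translation repressor 4E-BP1 and is a known ATF4 target, fell by 0.96 with nutlin in TPC1 (SE 0.104) and rose by 1.08 ± 0.105 when GSK2830371 was added (adjusted p = 0.00019). Its K1 values were -0.28 ± 0.113 and 0.42 ± 0.114, neither called. *GRB10*, another substrate, rose by 0.89 ± 0.0993 when GSK2830371 was added to nutlin in TPC1, and *KICS2*, a subunit of the KICSTOR scaffold of GATOR, by 0.62 ± 0.107. *CASTOR1*, the arginine sensor, fell by 0.65 in K1 (SE 0.149, adjusted p = 0.013) in that comparison. *PIK3IP1* fell by 0.65 in TPC1 (SE 0.105, adjusted p = 0.0025), opposite to *SESN2* and *DDIT4* there.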

How the data were processed

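Stranded polyadenylated RNA (TruSeq) of TPC1 and K1 cells was sequenced after 24 h of treatment. The authors aligned the reads to GRCh37 (hg19) with TopHat2 2.0.13, removed alignments of low mapping quality and counted reads per gene with HTSeq 0.6.1, and the deposited values are raw counts per gene symbol without normalization. Counting used the strand, and a read shared by overlapping genes of one strand cannot be assigned.

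Groups were taken from the sample labels. TPC1 columns numbered 3 match no numbered sample label and were assigned to their treatment alone, and TPC1 libraries are named by column number. The study describes its replicates in general as biological ones, prepared separately. The p-values rest on the spread between 2 of them per group, pooled over the fitted groups and moderated towards that of other genes. Scaled counts (CPM) use the library total, and 0 sample columns were left unused. Genes above 0.1 CPM in at least 2 libraries were fitted in edgeR 4.0.16 (R 4.3.3) with TMM scaling and the quasi-likelihood test, jointly over the 8 libraries of a line (15273 genes in TPC1, 15900 in K1) or over all 16 (16738 genes). Benjamini-Hochberg adjustment ran over all genes tested, and the test was checked on simulated counts. DESeq2 1.42.0 was the other tool. Each fit of 1 line has 4 residual degrees of freedom before the moderation over genes.

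All 10 members are named with their values. From the pathway lists, genes called in the same direction in both lines with the combination against DMSO, or in either line against nutlin, averaging 1 CPM or more in the higher group, are named, and others are said to have been picked later. The nearest genes by response are the 3 with the smallest root mean square difference, among genes averaging 5 CPM or more in each line, after a prior count of 2. The members and the lists were chosen with earlier results of these data known. RPKM values use the length of the canonical transcript in GENCODE v44lift37, not the authors' annotation.

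Deviations of same-numbered libraries from their group means correlated at 0.429 to 0.575 across 12303 genes between TPC1 treatments and at -0.316 to 0.328 across 12546 genes in K1, and the study says of its ChIP-seq libraries, not of its RNA-seq libraries, that numbered replicates are separate experiments. A fit with it as a block was made for both lines. The other alternatives were DESeq2 size factors, library size alone, edgeR's filterByExpr, no filter, pairwise fits, leaving out each library, and a smooth correction for transcript GC and length, chosen after seeing the data, for which 87.4% of TPC1 and 87.1% of K1 genes had values.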

Additional observations from a re-analysis of the deposited data

Results flagged for a closer look

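A test of the difference between the lines set apart 9 results, 8 of them in the response to nutlin. The log2 fold change with nutlin was smaller in K1 than in TPC1 for *SESN1* (difference -1.62), *SESN2* (-1.06), *SESN3* (-4.40), *DDIT4* (-0.86), *TSC1* (-0.62), *DEPTOR* (-0.70), *PRKAB1* (-0.96) and *PRKAB2* (-1.97). The line, its medium and any sequencing run specific to it cannot be told apart. *DEPTOR* is the one of these with opposite directions, 0.53 in TPC1 and -0.14 in K1, neither called by itself. The change when GSK2830371 was added to nutlin differed between the lines for *SESN3* (1.78 higher in K1), which rests on 63 and 19 counts in TPC1.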

How the results depend on the processing

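Of 150 pairs of a gene and a comparison, 56 were called, and 46 of these were called under every alternative run. Across 1084 alternative values of the 63 pairs called in any setting, 1041 kept their direction and their side of the thresholds, 29 lost a call, 14 gained one and 0 changed sign. Of 1475 alternative values of pairs never called, 57 changed sign. The number of genes called in the TPC1 interaction moved from 0 to 1 under library size alone and under the correction for GC content and length, and was 0 to 1 when a library was left out. That in the K1 interaction was 0 to 1 when a library was left out. The number called for a line difference in the combination against nutlin was 2 under library size alone, and 0 to 2 when a library was left out. The cause was not tested. With the replicate block, 8 genes were called with nutlin in TPC1 and 4 in K1, and the block changed no call of the 10 genes in any comparison. In K1 the libraries share only a number. Scaling by library size alone moved the median of all genes by -0.10 in the combination against GSK2830371 in TPC1. With 2 libraries per group, leaving one out leaves a lone library, whose spread is taken from the other groups. Depth limits *SESN3* in TPC1, at 0 to 38 counts per library. These are RNA levels, and mTORC1 activity was not measured here.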
